A study of Mus musculus with 22 samples.

Results

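The genes described here belong to the repackaging of the spermatid genome, by function or by position: the protamines *Prm1* and *Prm2*, their neighbor *Prm3*, the transition proteins *Tnp1* and *Tnp2*, and the chromatin regulators *Brdt* and *Chd5*. They were chosen by name, with earlier results of these data known. All 7 had a row among the 17931 gene symbols of the testes RNA-seq count table and passed the low-count filter. RNA was from whole testes of males aged 7 months, 3 WT and 3 MLXKO (*Mlx* null) littermates, and same-numbered libraries came from littermate pairs. MLXKO mice constitutively lack the exons for the dimerization and DNA-binding region of MLX, a basic helix-loop-helix leucine zipper transcription factor and the partner of glucose-sensing MondoA and ChREBP. The allele was made in 129S4 embryonic stem cells and deleted with *Meox2*-Cre, which was then crossed out. More than 1 line was made from separate stem cell clones, and the sources used here do not say which gave these testes. No treatment was given, and libraries are called WT1 to WT3 and KO1 to KO3. The WT males were verified fertile breeders and MLXKO males were infertile, so mating history cannot be told apart from genotype.

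In round spermatids, DNA is still wrapped around histones. As the nucleus elongates, histones are acetylated and removed, transition proteins take their place for a time, and protamines, small proteins rich in arginine, then compact the DNA into the sperm head. BRDT is a testis-specific bromodomain protein that binds acetylated histones, and CHD5 is a chromodomain helicase of the remodeling step. *Brdt* is already transcribed in spermatocytes, whereas *Prm1*, *Prm2*, *Tnp1* and *Tnp2* are transcribed in round spermatids, and their messengers are stored and translated later. *Prm3* lies among the protamine genes, although its product is acidic and is not a nuclear DNA-packaging protein.

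The libraries held between 16674678 and 19742726 counts. Levels are given as CPM, counts scaled to the same total in every library, with TMM factors that adjust for differences in RNA composition. Markers of spermatids and spermatocytes were abundant in every library, and markers of Sertoli, Leydig and other testis cells were detected as well. The counts of *Mlx* itself were 128, 96 and 98 for the WT libraries, against 94, 109 and 102 for MLXKO (LFC, the log2 fold change of MLXKO against WT, -0.18, SE 0.14). The count is for the whole gene, with no split between deleted and retained exons, so it does not check the labels. In whole tissue, fewer cells of a type and less RNA per cell cannot be told apart.

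*Prm1*, *Prm2*, *Prm3* and *Tnp2* form a cluster of 8.89 kb on the minus strand of chromosome 16 (GRCm38.p6, from 10787935 to 10796823). In the direction of transcription the order is *Prm1* (10796332 to 10796823), *Prm2* (10791377 to 10792105), *Prm3* (10790508 to 10790914) and *Tnp2* (10787935 to 10788655). *Tnp1* is alone on chromosome 1 (73015074 to 73015899, minus strand). *Brdt* (chromosome 5, 107331116 to 107387061) and *Chd5* (chromosome 4, 152338646 to 152390194) are long genes on the plus strand. *Prm1*, *Prm2*, *Tnp1* and *Tnp2* have 2 exons each and messengers of 400, 624, 427 and 550 bases in RefSeq, *Prm3* has 1 exon of 407 bases, and the longest curated messengers of *Brdt* and *Chd5* have 19 and 42 exons. *Brdt* overlaps 2 predicted genes, so some reads there could belong to either, while none of the other members overlaps a RefSeq gene.

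The stretches upstream of the start sites show what these promoters share and where they differ. RefSeq promoters were found for 7 of 7 members, and 140 bases of 6 of them are printed 5′ to 3′ on the strand of the gene. Capitals mark matches to motifs searched on both strands in the window from 250 bases before to 50 after each start. These were the E-box CACGTG recognized by dimers of MLX and by dimers of MAX, the cyclic AMP response element TGACGTCA bound by CREM together with its relaxed form TGANGTCA, TATAAA, and TATATA, which can overlap TATAAA. The motifs were chosen after the promoters had been read. The *Prm1* stretch runs from 190 to 51 bases upstream of its RefSeq start, and the others from 150 to 11. *Prm1* is shown at chr16:10796874-10797013, *Prm2* at chr16:10792116-10792255, *Prm3* at chr16:10790925-10791064, *Tnp1* at chr1:73015910-73016049, *Tnp2* at chr16:10788666-10788805 and *Brdt* at chr5:107331044-107331183.
Prm1: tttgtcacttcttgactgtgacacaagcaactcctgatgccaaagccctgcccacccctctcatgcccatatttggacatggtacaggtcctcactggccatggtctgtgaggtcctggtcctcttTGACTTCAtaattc
Prm2: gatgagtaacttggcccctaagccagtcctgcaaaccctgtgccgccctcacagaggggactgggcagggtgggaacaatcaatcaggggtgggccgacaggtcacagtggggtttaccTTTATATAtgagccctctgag
Prm3: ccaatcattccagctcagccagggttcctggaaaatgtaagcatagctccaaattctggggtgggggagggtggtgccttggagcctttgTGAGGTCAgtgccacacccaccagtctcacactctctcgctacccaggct
Tnp1: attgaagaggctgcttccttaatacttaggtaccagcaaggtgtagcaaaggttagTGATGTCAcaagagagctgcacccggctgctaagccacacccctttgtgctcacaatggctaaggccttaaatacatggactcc
Tnp2: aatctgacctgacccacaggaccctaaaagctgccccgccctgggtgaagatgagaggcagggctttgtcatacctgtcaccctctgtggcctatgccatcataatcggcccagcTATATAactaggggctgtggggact
Brdt: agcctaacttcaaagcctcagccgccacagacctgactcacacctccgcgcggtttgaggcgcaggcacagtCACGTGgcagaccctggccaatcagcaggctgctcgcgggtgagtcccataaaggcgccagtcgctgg
TGANGTCA was found in *Tnp1* (TGATGTCA, starting 94 bases upstream), *Prm3* (TGAGGTCA, 60 bases upstream) and *Prm1* (TGACTTCA, a match to the other strand, 64 bases upstream). It is present in 8.62% of 32534 RefSeq promoters of the same length. The full TGACGTCA, present in 1.80% of them, was in none of the 7 windows. TATATA, present in 5.44%, was found in *Prm2* and *Tnp2*, 29 and 35 bases upstream. TATAAA, present in 13.6%, was found in *Prm2*, on the other strand and overlapping TATATA. The E-box, present in 7.17%, was found in *Brdt*, 78 bases upstream, and in none of the other 6 windows. *Chd5* had none of these letters. A match in letters does not show binding.

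The messengers of the major protamines and transition proteins fell in MLXKO testes to between 56.8% and 59.8% of their WT means, *Prm3* fell less, and *Brdt* and *Chd5* fell least. All 7 genes had a negative LFC, and all 7 were past an adjusted p of 0.05, the threshold used throughout (quasi-likelihood test of edgeR, Benjamini-Hochberg over 14640 genes). Of all genes tested, 20.6% were past this threshold and lower, and 24.8% were past it and higher. In each of the 7 genes the highest MLXKO library was below the lowest WT library, which was the case for 25.9% of all genes tested. Every pair is then lower however the libraries are paired, so the pair counts given below add no support of their own. The same holds for any other gene or ratio whose groups do not overlap. The median LFC of the 7 was -0.74, beside 0.03 over all genes tested.

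**Figure D1:**
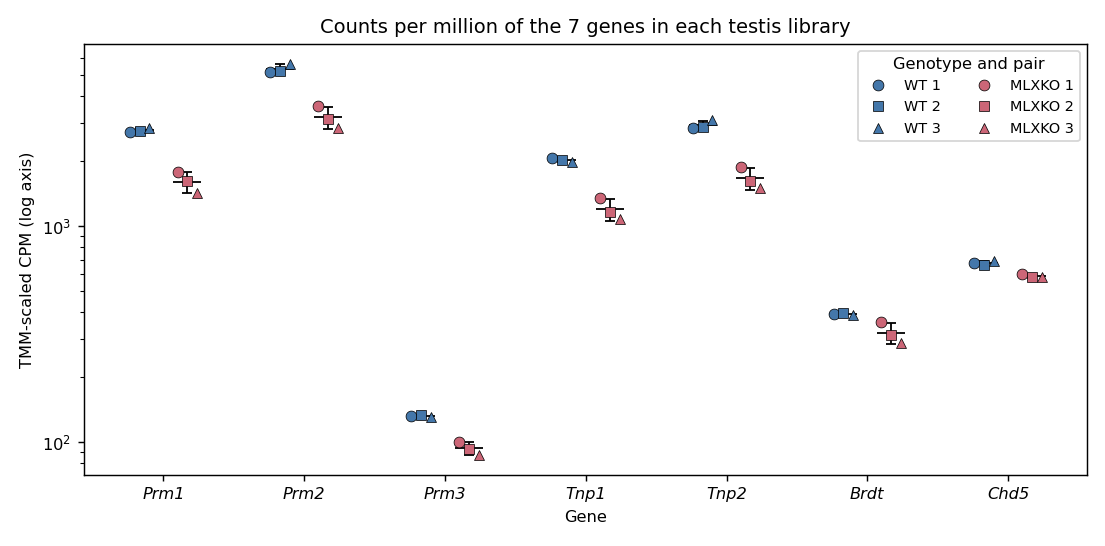
Level of each gene (TMM-scaled CPM, log axis) in every testis library, WT in blue and MLXKO in red, with circles, squares and triangles for littermate pairs 1 to 3 and black bars for the mean ± SD (n = 3). All MLXKO points lie below all WT points in each gene, and the gap is widest for *Prm1*, *Prm2*, *Tnp1* and *Tnp2*.

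*Prm2*, the protamine made as a precursor and cleaved on the DNA, was counted 98567, 82156 and 100485 times in WT1 to WT3 and 69876, 56958 and 54028 times in KO1 to KO3. On the CPM scale it was at 5197, 5224 and 5666 in WT and at 3604, 3151 and 2860 in MLXKO. WT3 was the highest library and KO3 the lowest, and the groups did not overlap. The group means were 5362 ± 263 and 3205 ± 375 CPM (SD, n = 3 each), with an LFC of -0.74 ± 0.08 (SE), which was negative in 3 of 3 littermate pairs (edgeR, adjusted p = 5.18e-05).

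*Prm1*, the protamine found in all mammals, reached 51914, 43635 and 50795 reads in WT and dropped to 34501, 29265 and 26846 in MLXKO testes. This corresponds to 2737, 2775 and 2864 CPM in WT and 1780, 1619 and 1421 in MLXKO. The WT libraries lay close together and the MLXKO libraries were more spread, with SDs of 65.4 and 180 CPM. The LFC was -0.80 ± 0.07 (SE), which was negative in 3 of 3 littermate pairs (edgeR, adjusted p = 2.22e-05), and MLXKO testes were at 57.5% of the WT mean.

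The counts of *Prm3* were 2499, 2097 and 2335 (WT) and 1955, 1688 and 1652 (MLXKO). Its CPM values were 132, 133 and 132 in WT and 101, 93.4 and 87.5 in MLXKO. The decrease was smaller than that of its neighbors, to 71.0% of the WT mean, with an LFC of -0.49 ± 0.06 (SE), which was negative in 3 of 3 littermate pairs (edgeR, adjusted p = 6.92e-05). For every 100 counts of *Prm1* and *Prm2* together, the counts of *Prm3* were 1.66, 1.67 and 1.54 in WT against 1.87, 1.96 and 2.04 in MLXKO testes. This ratio was higher in each MLXKO library than in each WT library, but it was chosen after the values were seen and was not tested.

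*Tnp1* encodes the smaller of the transition proteins. Its counts were 39289, 31981 and 35011 for WT and 26173, 21011 and 20435 for MLXKO testes, or 2071, 2034 and 1974 CPM against 1350, 1162 and 1082. The groups were far apart for their spread, with an LFC of -0.76 ± 0.07 (SE), which was negative in 3 of 3 littermate pairs (edgeR, adjusted p = 2.86e-05).

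*Tnp2*, which encodes a zinc-binding transition protein, showed the largest decrease of the 7 genes in the fit with TMM scaling. WT libraries held 53980, 45168 and 55064 of its reads, and MLXKO libraries 36379, 29399 and 28418. The CPM values were 2846, 2872 and 3105 in WT and 1877, 1626 and 1504 in MLXKO, with an LFC of -0.82 ± 0.08 (SE), which was negative in 3 of 3 littermate pairs (edgeR, adjusted p = 2.35e-05). The LFCs of *Prm1*, *Prm2*, *Tnp1* and *Tnp2* lay between -0.82 and -0.74, a span near the SE of each.

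For *Brdt* the counts were 7443, 6211 and 6898 in WT, against 6979, 5659 and 5472 in MLXKO testes. Its CPM values were 392, 395 and 389 in WT and 360, 313 and 290 in MLXKO. KO1 was nearest to WT and the other MLXKO libraries lay further below, so that the SD was 3.01 CPM in WT and 35.8 in MLXKO. The LFC was -0.29 ± 0.07 (SE), which was negative in 3 of 3 littermate pairs (edgeR, adjusted p = 0.00617). With library size alone in place of TMM the LFC was -0.15 (adjusted p = 0.0479, with 2.05e-05 to 0.0479 over 14 alternatives).

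For *Chd5* the counts were 12809, 10435 and 12206 in WT, against 11696, 10525 and 11051 in MLXKO testes, or 675, 664 and 688 CPM against 603, 582 and 585. The difference was small but exceeded the spread within groups, with an LFC of -0.20 ± 0.05 (SE), which was negative in 3 of 3 littermate pairs (edgeR, adjusted p = 0.00522). It was the call that depended on scaling: with library size alone the LFC was -0.06 (adjusted p = 0.183, with 4.34e-05 to 0.183 over 14 alternatives), and with totals counted without the 7 genes it was -0.06 (adjusted p = 0.142).

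Scaling by library size alone moved the median LFC of all genes tested to 0.16, from 0.03 with TMM. A change of scaling shifts the LFC of every gene by about the same amount, so values relative to the median hardly depend on it by construction and do not check the calls of *Brdt* and *Chd5*. Relative to the median with TMM, the LFC was -0.82 for *Prm1*, -0.77 for *Prm2*, -0.52 for *Prm3*, -0.31 for *Brdt* and -0.22 for *Chd5*. Within the MLXKO group, KO1 was the highest library in all 7 genes, and KO3 the lowest in every member but *Chd5*. Without KO1 the LFC of *Prm2* was -0.83, and without KO3 it was -0.66.

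Per length of messenger, *Prm1*, *Prm2*, *Tnp1* and *Tnp2* were the most abundant of the tested genes with a RefSeq messenger length. In WT, *Prm2* (8594 ± 422 CPM per kb, SD, n = 3), *Prm1* (6980 ± 163), *Tnp2* (5347 ± 259) and *Tnp1* (4746 ± 115) held ranks 1 to 4 among 14613 genes with a RefSeq messenger length. They held the same ranks in MLXKO testes, at 5137 ± 601, 4017 ± 449, 3035 ± 345 and 2806 ± 322 CPM per kb (SD, n = 3). *Prm3* was at 325 CPM per kb in WT (rank 198) and 231 in MLXKO testes (rank 258). *Brdt* (83.3 CPM per kb in WT) and *Chd5* (71.2) were lower, at ranks 1223 and 1429. In WT each step in this order from *Prm2* down to *Chd5* exceeded the SDs of its neighbors, and in MLXKO testes the steps between *Tnp2* and *Tnp1* and between *Brdt* and *Chd5* did not. For messengers this short, the length that reads can cover is smaller than the full length, which makes levels per kb least certain for the protamine and transition protein genes. By CPM without regard to length, *Prm2*, *Tnp2*, *Prm1* and *Tnp1* were at WT ranks 2, 9, 11 and 22 among the 14640 genes tested. Together the 7 genes took 1.36% ± 0.0435 of all counts in WT and 0.910% ± 0.0766 in MLXKO testes (SD, n = 3). In single libraries the share ran from 1.41% in WT3 (95% Wilson interval 1.41 to 1.42, counting error only) to 0.834% in KO3 (0.830 to 0.838).

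With TMM scaling, most abundant testis transcripts were lower in MLXKO testes, and *Prm1*, *Prm2*, *Tnp1* and *Tnp2* stood at the low end of that group. Of the 67 genes with a mean over all 6 libraries of at least 1000 CPM, a limit chosen after seeing the data, 63 were not members. In edgeR, 58 of these were lower and 1 higher past the threshold, beside 20.6% lower and 24.8% higher of all genes tested. These genes were counted with TMM scaling only. With library size alone, the lower calls over all genes tested went from 3015 to 1268. The LFCs of the 63 ran from -0.57, for *4933411K16Rik*, to 0.78, for *Clu*, which encodes the secreted chaperone clusterin, with a median of -0.30. All 4 members in that range of abundance lay below this span. Over all 14640 genes tested, 0.820% had an LFC as low as that of *Prm1* or lower, 0.751% as low as that of *Tnp2*, 3.11% as low as that of *Prm3* and 22.0% as low as that of *Chd5*.

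**Figure D2:**
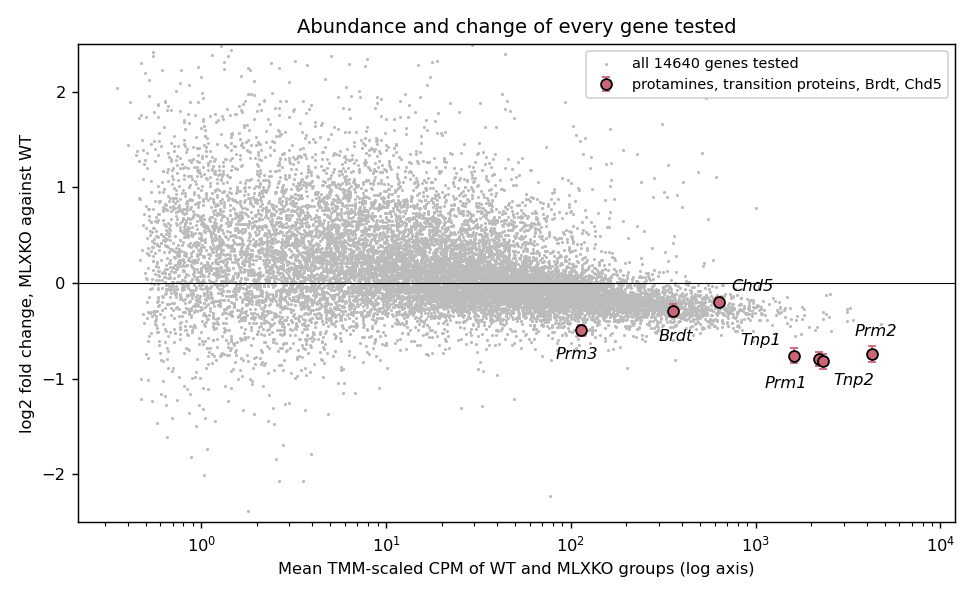
LFC (MLXKO against WT) of each of the 14640 genes tested against mean level (TMM-scaled CPM, log axis), with the 7 genes in red and bars for the SE; 42 genes lie outside the plotted LFC range. *Prm1*, *Prm2*, *Tnp1* and *Tnp2* sit at the right edge near -0.8, below the other genes of that abundance.

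Ratios between transcripts in the same library need no scaling between libraries, and 5 of them were compared. Counts of *Prm1* per count of *Prm2* were 0.527, 0.531 and 0.505 in WT and 0.494, 0.514 and 0.497 in MLXKO testes, and the groups overlapped. The difference of the mean log2 ratios, MLXKO minus WT, was -0.06 (WT SD 0.04, MLXKO SD 0.03, n = 3 each, exact two-sided permutation p = 0.2, adjusted over the 5 ratios 0.333), and the ratio was lower in 3 of 3 littermate pairs. The ratio of *Tnp1* to *Tnp2* was 0.728, 0.708 and 0.636 in WT and 0.719, 0.715 and 0.719 in MLXKO, with WT3 apart from the rest and a difference of 0.06 on the log2 scale (exact permutation p = 0.6, adjusted 0.6). That difference was -0.00028 without WT3 and 0.10 without WT1. The sum of *Prm1* and *Prm2* over the sum of *Tnp1* and *Tnp2* was between 1.61 and 1.68 in WT and between 1.66 and 1.71 in MLXKO, a difference of 0.03 (exact permutation p = 0.3, adjusted 0.375), and of 0.02 to 0.05 when each library was left out (0.02 without WT1 or KO2, 0.05 without WT3). A p of this size does not show that the ratios are equal.

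Relative to *Brdt* and to round spermatid markers, the late transcripts were lower in each MLXKO library. *Prm1*, *Prm2*, *Tnp1* and *Tnp2* together reached 32.7, 32.7 and 35.0 counts per count of *Brdt* in WT, against 23.9, 24.1 and 23.7 in MLXKO testes. The groups did not overlap, and the difference was -0.48 on the log2 scale (WT SD 0.06, MLXKO SD 0.01, n = 3 each). The exact two-sided permutation p was 0.1, adjusted 0.25, and 0.1 is the smallest that 3 testes against 3 allow, so that no ratio could pass 0.05. Against the summed counts of 9 round spermatid markers, the stage in which these 4 genes are first transcribed, the ratio was 7.32, 7.07 and 7.68 in WT and 5.62, 5.37 and 4.77 in MLXKO. The difference was -0.49 (WT SD 0.06, MLXKO SD 0.12, exact permutation p = 0.1, adjusted 0.25), lower in 3 of 3 pairs. Elongating spermatid markers, none of them a member, were also lower against the same round spermatid markers. Their ratio was 8.48, 8.23 and 8.46 in WT and 7.78, 7.47 and 7.01 in MLXKO, a log2 difference of -0.18. That ratio was added after the values were seen and was not tested.

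**Figure D3:**
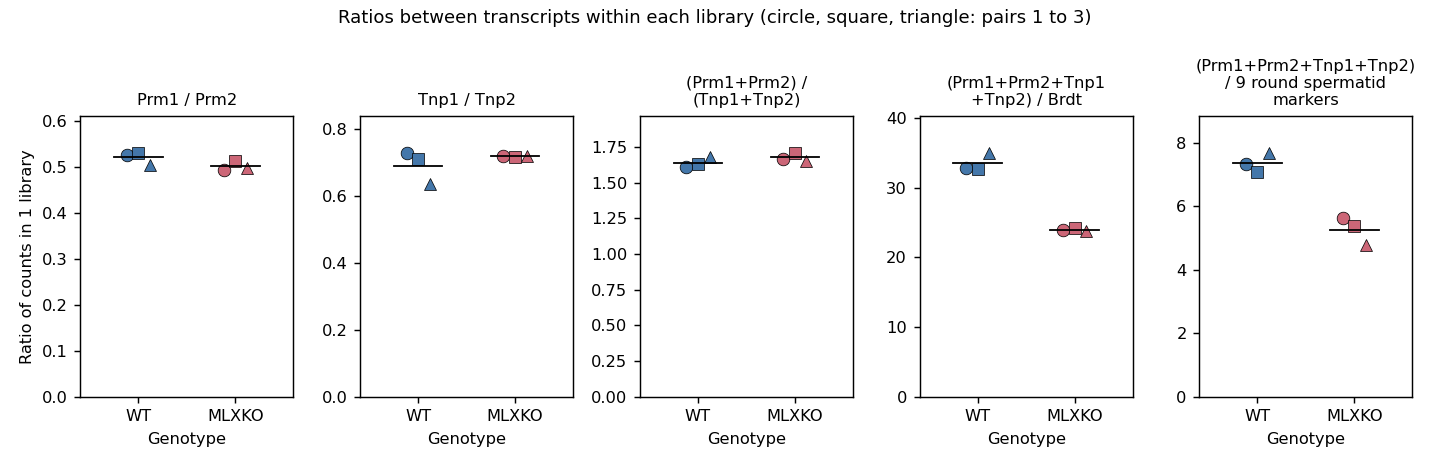
Ratio of counts within each library for 5 pairs of transcripts or sums (axes from 0), WT in blue and MLXKO in red, with symbols for littermate pairs 1 to 3 and lines at the geometric mean. The 3 ratios on the left overlap between genotypes, whereas the ratios to *Brdt* and to round spermatid markers are lower in each MLXKO library.

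Markers of spermatids and spermatocytes were lower and somatic markers higher in the same MLXKO libraries. The summed CPM of 12 elongating spermatid markers, none of them a member, was 14883 to 15033 in WT and 10093 to 11914 in MLXKO testes, 72.4% of the WT mean. For 9 round spermatid markers the ranges were 1756 to 1826 and 1407 to 1532 (81.8%), and for 9 spermatocyte markers 1672 to 1732 and 1419 to 1538 (85.7%). The summed members were at 14050 to 14819 in WT and 7830 to 9675 in MLXKO, or 60.6% of the WT mean. Per count of the elongating spermatid markers, *Prm1*, *Prm2*, *Tnp1* and *Tnp2* together reached 0.863, 0.858 and 0.908 counts in WT, against 0.723, 0.719 and 0.680 in MLXKO testes, lower in each MLXKO library. This ratio was chosen after the values were seen and was not tested. The ranges in WT and MLXKO were 148 to 153 and 163 to 174 CPM for 10 spermatogonia markers, 525 to 537 and 730 to 882 for 9 Sertoli cell markers, 796 to 814 and 1748 to 2256 for 8 Leydig cell markers, and 80.8 to 85.1 and 169 to 175 for 8 macrophage markers. All 12 elongating and 9 round spermatid markers were past the threshold and lower, with median LFCs of -0.48 and -0.27. For spermatocyte markers it was 7 of 9, with a median LFC of -0.21. Of 10 spermatogonia markers, 2 were past it and higher and 1 lower. Each of the 9 markers of Sertoli cells was past it and higher, as was each of the 8 for Leydig cells and the 8 found for macrophages, with median LFCs of 0.60, 1.16 and 1.21. With library size alone, 12 elongating spermatid, 4 round spermatid and 2 spermatocyte markers were past it and lower. The part of cell composition in the decrease of the members was not tested.

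Other genes of spermatid chromatin remodeling and protamine control were listed too, 65 in all, of which 64 could be tested. In edgeR, 36 were lower and 2 higher past the threshold, beside 20.6% lower and 24.8% higher of all genes, and their median LFC was -0.17. The same shares of all genes are the background for the counts of each list below in this fit. *Trrap*, a scaffold of acetyltransferase complexes, was among the higher genes (LFC 0.22, adjusted p = 0.0348). With library size alone the split was 22 lower and 11 higher, beside 1268 lower and 5343 higher of the 14640 genes tested. Without KO2, 25 genes of the lists were past the threshold, all lower. With the replicate block in DESeq2, 35 were past it, all lower. No gene of these lists had an LFC as low as those of *Prm1*, *Prm2*, *Tnp1* and *Tnp2*. The nearest was *H2afb1* (LFC -0.70, SE 0.07), whose gap to *Prm2* (LFC -0.74, SE 0.08) was smaller than either SE.

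Among 7 spermatid histone variants tested, 3 were past the threshold, all lower, and the median LFC was -0.37 (-0.61 without KO1, -0.20 without KO2 and -0.24 with library size alone). They were *H2afb1* (LFC -0.70, SE 0.07), a short histone of the H2A.B type whose near-identical copies on the X chromosome could share its reads, *H1fnt* (LFC -0.55, SE 0.07), the linker histone of the condensing nucleus, and *Hils1* (LFC -0.37, SE 0.06), the linker histone-like protein of spermatids (adjusted p = 2.42e-05, 1.74e-04 and 5.20e-04 from edgeR). The genes for histone H3.3, *H3f3a* and *H3f3b*, had LFCs of -0.09 and -0.02 and were not past it. The testis histone genes *Hist1h1t* (LFC -0.30, SE 0.35) and *Hist1h2aa* (LFC -0.42, SE 0.32) had few counts and were not past it, and *Hist1h2ba* had too few counts for testing. With library size alone 3 genes of this list were past the threshold and lower and 1 higher, as with totals counted without the 7 members.

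Of 16 genes for histone acetylation, ubiquitylation and removal, 7 were past the threshold and lower and 2 higher, with a median LFC of -0.12. With library size alone 4 were lower and 2 higher and the median was 0.02, and 5 genes without KO2 and 6 with the replicate block in DESeq2 were past it, all lower. The lower genes with the largest LFC were *Cdyl* (-0.35, SE 0.05), a chromodomain protein of the Y family, *Phf7* (-0.32, SE 0.06), a ubiquitin ligase needed for histone removal, and *Kat8* (-0.29, SE 0.06), which acetylates lysine 16 of histone H4 (adjusted p = 3.01e-04, 9.60e-04 and 0.00181 from edgeR). Of 14 remodelers, chaperones and DNA break enzymes, 4 were past it, all lower, with a median LFC of -0.0028. That is 28.6% lower, near the 20.6% of all genes tested. These included *Hmgb4* (-0.46, SE 0.06), a testis HMG box protein, *Hspa2* (-0.28, SE 0.06), a chaperone of transition proteins, and *Smarca4* (-0.18, SE 0.05), an ATPase of the BAF remodeler (adjusted p = 1.03e-04, 0.00177 and 0.00897 from edgeR). *Chd3* and *Chd4*, the relatives of *Chd5*, had LFCs of 0.03 each and were not past it. With library size alone the *Smarca4* LFC was -0.04 and it was no longer past the threshold (adjusted p = 0.441), nor was it without KO2. With that scaling, 6 genes of this list were past it and higher and 2 lower, beside 5343 higher and 1268 lower of the 14640 genes tested.

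Of 6 histone methylation enzymes, 3 were past the threshold and lower, namely *Dot1l* (LFC -0.27, SE 0.05), which methylates histone H3 lysine 79, *Kdm4d* (-0.20, SE 0.06), an H3 lysine 9 demethylase, and *Kdm3a* (-0.15, SE 0.04), an H3 lysine 9 demethylase known to act at the *Prm1* and *Tnp1* promoters (adjusted p = 0.00127, 0.0168 and 0.0201 from edgeR). *Kdm3a* was not past the threshold in 7 of 14 alternatives, among them library size alone (LFC -0.01), the replicate block in edgeR and the fits without WT1, WT2, KO2 or KO3. In this list 1 gene was lower and 1 higher with library size alone, and the median LFC was 0.02, from -0.12. *Kdm4d* was not past it in 6 of 14, which were both scalings by totals and the fits without WT1, WT3, KO2 or KO3.

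Of 6 regulators of protamine and transition protein transcription, 5 were past the threshold and lower, with a median LFC of -0.24. *Rfx2* (LFC -0.35, SE 0.06), a winged-helix factor of spermatids, *Fhl5* (-0.32, SE 0.05), the coactivator of CREM, and *Tbpl1* (-0.28, SE 0.05), a TATA-binding protein relative, had the largest LFCs (adjusted p = 7.36e-04, 6.97e-04 and 0.00120 from edgeR). The exception was *Taf7l* (LFC -0.01). The number past it was 3, all lower, with library size alone (median LFC -0.10) and without WT2, KO2 or KO3. Of 10 regulators of messenger storage and translation, 9 were past it and lower, with a median LFC of -0.25. The largest LFCs were those of *Ybx3* (-0.38, SE 0.06) and *Ybx2* (-0.34, SE 0.06), Y-box proteins that hold protamine messengers in storage, and *Papolb* (-0.32, SE 0.06), a cytoplasmic poly(A) polymerase of the testis (adjusted p = 4.39e-04, 9.74e-04 and 9.66e-04 from edgeR). *Elavl1* was the exception (LFC 0.03). Of this list, 6 were lower and 1 higher with library size alone, with a median of -0.11. All 5 genes for protamine and transition protein kinases and a phosphatase were past it and lower, led by *Tssk6* (-0.53, SE 0.07), a kinase of elongating spermatids, *Camk4* (-0.32, SE 0.07), which phosphorylates PRM2, and *Ppp1cc* (-0.24, SE 0.05), a protein phosphatase catalytic subunit (adjusted p = 1.54e-04, 0.00496 and 0.00353 from edgeR). Of these 5, 3 were past it with library size alone, and the median LFC was -0.10, from -0.24.

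**Figure D4:**
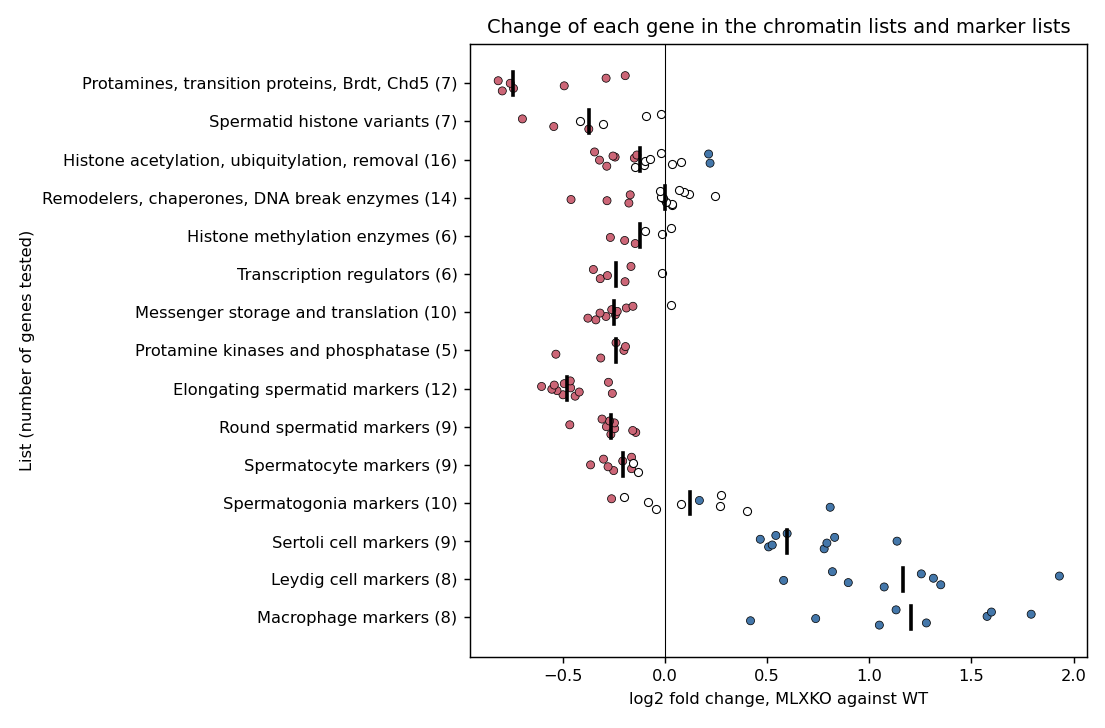
LFC (MLXKO against WT) of each gene tested in the lists of spermatid chromatin genes and of cell type markers, with filled points past the threshold (red lower, blue higher), open points not past it, and a black bar at the median of each list. *Prm1*, *Prm2*, *Tnp1* and *Tnp2* lie to the left of all other genes shown, and Sertoli cell, Leydig cell and macrophage markers lie to the right.

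Around the chromosome 16 cluster, 7 annotated genes within 100 kb were in the count table and tested, of which 4 were members. *Socs1*, an inhibitor of cytokine signaling and the nearest neighbor downstream of *Tnp2*, was at 67, 53 and 69 counts in WT, against 82, 65 and 77 in MLXKO testes (LFC 0.14, SE 0.15, adjusted p = 0.487 from edgeR). *Rmi2*, a subunit of the Bloom helicase complex on the other side, was at 33, 34 and 35 counts in WT, against 53, 36 and 34 in MLXKO (LFC 0.16, SE 0.23, adjusted p = 0.596 from edgeR). For both genes the groups overlapped and counts were few. *Clec16a*, a regulator of mitophagy, was lower, from 92.6 ± 6.56 to 72.1 ± 6.48 CPM (SD, n = 3 each; LFC -0.36, SE 0.07, negative in 3 of 3 pairs, edgeR adjusted p = 0.00201). *Tnp1*, on another chromosome, had an LFC of -0.76, close to those of *Prm1* and *Tnp2* in the cluster.

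**Figure D5:**
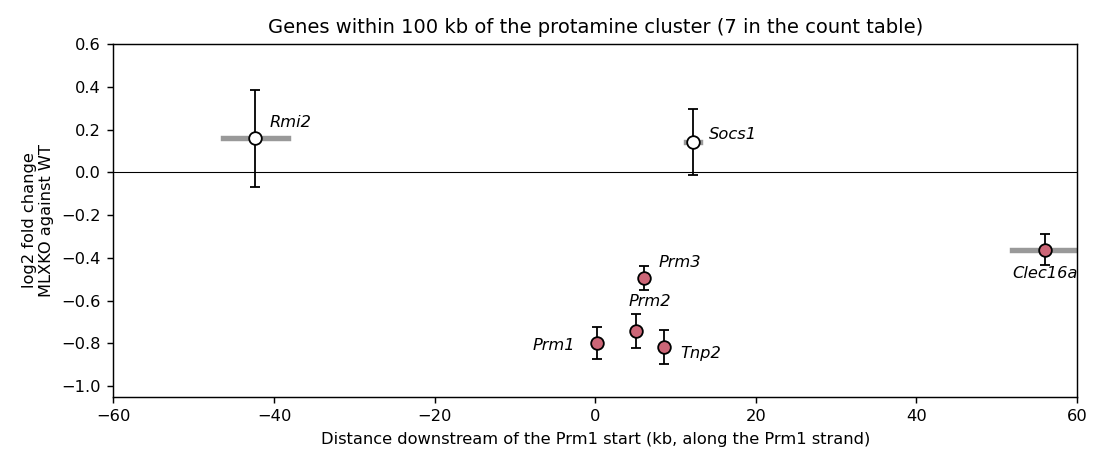
LFC (MLXKO against WT, bars for the SE) of the 7 tested genes within 100 kb of the cluster against distance from the *Prm1* start in kb, counted along the *Prm1* strand, with gray lines for gene length and filled points past the threshold; *Clec16a* runs on beyond the right edge, and its point stands near its closer end. *Prm1*, *Prm2*, *Prm3* and *Tnp2* lie between -0.82 and -0.49, and *Socs1* and *Rmi2* lie above 0.

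Over the 6 libraries, the log2 CPM of *Prm1*, *Prm2*, *Tnp1* and *Tnp2* each correlated with the mean of these 4 at 0.995 to 0.999, *Prm3* at 0.998, *Chd5* at 0.985 and *Brdt* at 0.945 (Pearson's r, n = 6). Each of the 4 is part of that mean, so its own r is high partly by construction. *Prm3*, *Chd5* and *Brdt* are not part of it. Of 9329 other genes with a mean of at least 10 CPM, the 5 with the highest r were *Samd4*, an RNA-binding translational repressor, *Lancl1*, *Tsks*, the substrate of testis-specific kinases, *4921507P07Rik* and *4930539E08Rik*, at 0.9998 to 0.9989. The genotypes form separate clusters in these libraries, so r is high for many genes with a clear difference between them, and it does not measure its size. The LFCs of these 5 were -0.33, -0.31, -0.43, -0.52 and -0.24, all smaller than those of the 4 genes they followed, and *4930539E08Rik* was not past the threshold (adjusted p = 0.0510 from edgeR).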

How the data were processed

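RNA-seq libraries from whole testes of 3 WT and 3 MLXKO males were analyzed. The count columns deposited by the authors hold whole numbers of reads per gene symbol, without normalization, made from paired-end reads aligned to mm10 with TopHat (the counting tool and annotation are not given in the sources used here). The same deposited table holds 6 columns of the authors' own comparison, namely a mean signal, log2 fold change, its standard error, a test score, and p-values, which were not used. Of 17933 rows, 2 repeated another row and were dropped. The ChIP-Seq samples were not analysed here.

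Counts were tested with edgeR 4.0.16 in R 4.3.3 (low-count filter at its default minimum of 10, TMM factors, quasi-likelihood test, genotype as the only term, Benjamini-Hochberg adjustment over 14640 genes). SEs are the absolute LFC over the square root of F. Libraries held 16674678 to 19742726 counts. Alternatives were DESeq2 1.42.0, its size factors, library size alone, upper-quartile factors, totals without the members, no filter, the replicate block, and each library left out. The code was tested on simulated data, where edgeR recovered 33 of 100 genes with an absolute LFC of 0.4. At 0.8 it recovered 96 of 100, with 5 false calls in all. The spread between simulated libraries was a set value, so these shares do not give the power in the real libraries.

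Pairs come from the sample titles and the littermates described in the methods. Deviations from the group means had r of 0.145, 0.0363 and 0.121 within pairs, and 0.0330 or less for WT and MLXKO libraries of unlike number. No libraries were duplicates (chi-square per degree of freedom 2.73 to 8.26 within genotypes). Genes were named by rule: all members, up to 3 genes past the threshold of each pathway list with the largest absolute LFC, genes within 100 kb of the cluster, the 5 most correlated genes, and *Mlx*. *Trrap*, *4933411K16Rik*, *Clu*, *Chd3*, *Chd4*, *H3f3a*, *H3f3b*, *Hist1h1t*, *Hist1h2aa*, *Hist1h2ba*, *Taf7l* and *Elavl1* were named after their values were seen, and the class of abundant genes and the ratios that were not tested were added then. The values of 1 listed gene are not reported here. The members and lists were chosen with earlier results of these data known. Sequences are from RefSeq (GRCm38.p6, the assembly that mm10 is based on).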

Additional observations from a re-analysis of the deposited data

How the results depend on the processing

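All 7 members kept a negative LFC in each of 14 alternatives, and 7 were past the threshold in each of them except with library size alone and with totals counted without the members, where *Chd5* was not and 6 were. When pairing entered as a replicate block, in edgeR or DESeq2, 7 of 7 members were past the threshold and no member's call changed, and 35 pathway genes were past it with either (33 lower and 2 higher in edgeR, 35 lower in DESeq2). The number of pathway genes past the threshold was 38, and between 25, without KO2, and 40, without KO1, when each library was left out. Over all genes tested, 6649 were past the threshold (3634 higher and 3015 lower), and with library size alone 6611 were (5343 higher and 1268 lower). The log2 difference in the ratio of the 4 late transcripts to round spermatid markers was -0.49 with their sum and -0.64 with their median. With 3 testes a group, ratios cannot reach a p below 0.1, so their p-values say nothing of stability. *Socs1* and *Rmi2* have too few counts for a small change to be seen.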
